A study of Mus musculus with 12 samples.

Results

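The 32 genes described here encode the enzymes of cholesterol synthesis, the sterol-sensing factors that switch them on, the proteins that move and store cholesterol inside the cell, and the export genes under the liver X receptor (LXR). They were chosen by name and role, with no threshold on their values, and all 32 were found among the 54532 genes of the count table. Each of them passed the low-count filter, which kept 16675 genes. They were followed in mouse bone marrow haematopoietic stem and progenitor cells (HSPCs), the cells from which all blood lineages arise, in 4 groups of 3 libraries. Cells of young mice and cells of aged mice were taken without culture, and cells of aged mice were also kept in culture, either with the vehicle or with uridine, a nucleoside from which cells make pyrimidine nucleotides. All mice are labelled wild type on a C57BL background, but the number after the slash climbs by 1 from library to library outside the vehicle group, so the substrain is uncertain. The ages of the mice, the markers of the sort, the vehicle, the culture time and the uridine dose were not stated in the sources used. Library totals ran from 16785065 to 19025802 counts. Levels are CPM, that is counts scaled to the library size and corrected with trimmed-mean (TMM) factors. The labels do not say whether each of the 3 libraries came from its own mouse or culture. The p-values can therefore speak only for the variation among libraries, part or all of which may be technical.

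As background, cholesterol is built from acetyl-CoA in a single long pathway. Its first part, the mevalonate pathway, makes isoprenoid units, and its second part joins them to squalene, closes the rings and trims the sterol. When sterols in the endoplasmic reticulum run low, SCAP carries the membrane-bound factor SREBP2 to the Golgi, where it is cut free to enter the nucleus and raise transcription of nearly every enzyme of the pathway; when sterols are plentiful, the INSIG proteins hold SCAP back. Oxidised sterols act in the opposite sense through LXR, which raises the exporters ABCA1 and ABCG1 and the ubiquitin ligase MYLIP, which removes lipoprotein receptors. In the marrow, ABCA1 and ABCG1 are known for restraining the proliferation of stem and progenitor cells.

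The letters upstream of some of these genes are shown first, because the synthesis genes moved together while Abca1 and Mylip moved the other way. Each is the 250 bases before the gene's start in RefSeq (build GRCm38.p6), written 5′ to 3′ on the gene's own strand. Capitals mark TCACNCCAC, a sterol regulatory element that SREBP binds, and CCAAT, the box bound by NF-Y, a factor known to work with SREBP, each searched on both strands (ATTGG is CCAAT read from the other strand). The synthesis enzymes Hmgcs1 (chr13:119690101-119690350, plus strand), Idi1 (chr13:8885356-8885605, plus strand), Cyp51 (chr5:4104698-4104947, minus strand) and Msmo1 (chr8:64733579-64733828, minus strand) were among those with the largest changes in culture. Insig1 (chr5:28071162-28071411, plus strand) is the SREBP regulator with the largest change there. Abca1 (chr4:53159896-53160145, minus strand) and Mylip (chr13:45389492-45389741, plus strand) are 2 of the 3 genes of the LXR set with the opposite change, the third being Abcg1.
Hmgcs1: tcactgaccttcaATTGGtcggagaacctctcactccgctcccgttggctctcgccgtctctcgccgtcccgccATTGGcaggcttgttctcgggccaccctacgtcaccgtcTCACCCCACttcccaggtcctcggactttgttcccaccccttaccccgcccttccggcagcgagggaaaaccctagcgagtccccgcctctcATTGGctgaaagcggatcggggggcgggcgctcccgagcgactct
Idi1: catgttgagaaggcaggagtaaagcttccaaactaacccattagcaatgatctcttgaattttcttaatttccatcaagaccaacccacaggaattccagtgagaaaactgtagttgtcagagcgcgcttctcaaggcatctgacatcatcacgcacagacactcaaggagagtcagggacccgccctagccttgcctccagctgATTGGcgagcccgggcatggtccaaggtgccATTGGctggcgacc
Cyp51: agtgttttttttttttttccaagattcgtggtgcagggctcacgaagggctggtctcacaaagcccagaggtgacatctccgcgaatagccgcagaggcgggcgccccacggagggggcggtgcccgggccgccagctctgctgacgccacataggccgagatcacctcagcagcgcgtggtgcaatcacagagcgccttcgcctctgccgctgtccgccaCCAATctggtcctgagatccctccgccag
Msmo1: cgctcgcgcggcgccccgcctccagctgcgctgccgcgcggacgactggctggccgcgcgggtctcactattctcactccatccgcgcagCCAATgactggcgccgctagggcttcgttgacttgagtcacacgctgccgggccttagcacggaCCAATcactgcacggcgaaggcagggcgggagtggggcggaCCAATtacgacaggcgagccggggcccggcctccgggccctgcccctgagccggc
Insig1: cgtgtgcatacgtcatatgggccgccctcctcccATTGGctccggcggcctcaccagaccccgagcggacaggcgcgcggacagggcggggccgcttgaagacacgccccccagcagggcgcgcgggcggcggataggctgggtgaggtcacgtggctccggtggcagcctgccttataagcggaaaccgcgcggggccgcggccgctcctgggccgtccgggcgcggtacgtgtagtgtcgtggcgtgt
Abca1: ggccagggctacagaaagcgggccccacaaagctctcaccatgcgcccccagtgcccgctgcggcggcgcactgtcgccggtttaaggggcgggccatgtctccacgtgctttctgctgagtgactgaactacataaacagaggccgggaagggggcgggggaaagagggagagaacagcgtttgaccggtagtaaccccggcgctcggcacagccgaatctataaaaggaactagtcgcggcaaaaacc
Mylip: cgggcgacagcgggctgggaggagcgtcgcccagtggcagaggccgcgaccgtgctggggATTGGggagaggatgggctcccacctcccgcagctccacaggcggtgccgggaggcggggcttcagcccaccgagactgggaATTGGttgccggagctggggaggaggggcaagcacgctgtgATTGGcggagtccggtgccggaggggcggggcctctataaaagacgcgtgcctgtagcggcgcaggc

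Promoter windows, from 250 bases before to 50 after a start, were found in RefSeq for 26 of the 32 genes. With no mismatch allowed, TCACNCCAC was found in 1 of them, Hmgcs1, beginning 137 bases before the start, and in 1.44% of all 27025 genes with a window. CCAAT was found in 22 of the 26 (84.6%), and in 41.1% of all genes. Of the 16 synthesis enzymes with a window, 15 held it. Msmo1 carried 3 copies, and so did Mylip, whose transcript moved against that of Msmo1, while Abca1 had none. GGGCGG, the GC box of Sp1, was found in 23 of the 26 (88.5%) and in 38.2% of all genes. The LXR element of the DR4 type, 2 AGGTCA repeats 4 bases apart, was in none of the 26 windows when no mismatch was allowed. It was in 0.0148% of all genes, 4 in number. A match this rare could hardly appear among 26 windows, so its absence does not show that Abca1 or another member lacks an LXR element. These are matches of letters only, on either strand. Forms of the elements that differ by a letter were not searched, so a window without a match may still hold such an element. Genes with several starts were counted once if any window matched, and each motif was searched on its own, so that matches of different motifs may overlap.

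Several features of the whole libraries bear on what follows. Immunoglobulin genes and Jchain took 21.8% ± 0.171 of the counts in uncultured aged libraries (SD, n = 3), and at most 0.923% ± 0.00141 in another group. The stem and progenitor markers Kit and Cd34 were present in every group, at 254 ± 4.23 and 282 ± 3.40 CPM in young and 201 ± 3.30 and 201 ± 8.07 CPM in uncultured aged cells. Of the 12 progenitor markers examined 4 were higher and 5 lower with age, among them Ly6a, from 17.8 ± 0.986 to 247 ± 4.80 CPM, and Procr, from 2.88 ± 0.190 to 15.5 ± 2.63 CPM, and none was at 0 in any group. Markers of macrophages summed to 188 to 202 CPM in uncultured aged and 1391 to 1431 CPM in vehicle libraries. For the summed level of each of the 7 marker lists the uridine libraries lay between the vehicle and the young ones, as for the erythroid list, at 9.72 to 11.9 CPM with vehicle, 198 to 203 with uridine and 571 to 576 in young cells. Over the 145 genes whose young level was 10 or more times the vehicle level, the uridine mean lay at a median of 0.333 of the way from vehicle to young (quartiles 0.310 and 0.363). In bulk RNA, fewer cells of a type cannot be told apart from less RNA per cell.

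**Figure D1:**
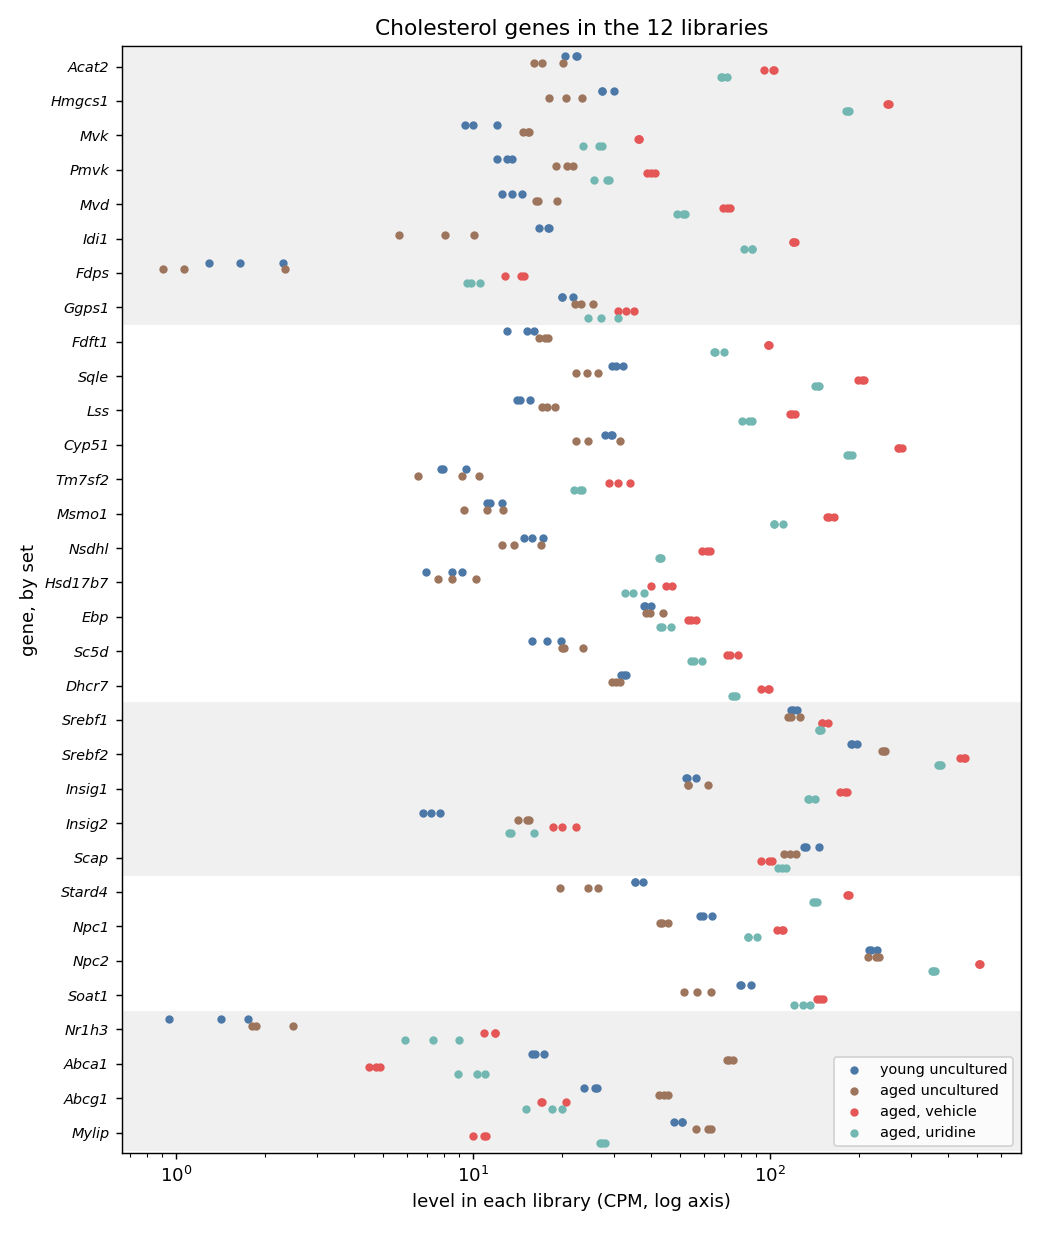
The level of each of the 32 genes in each of the 12 libraries, in CPM on a log axis, with 1 point per library coloured by group and genes grouped by role (grey and white bands: mevalonate and isoprenoid steps, squalene and sterol steps, SREBP factors and regulators, transport and storage, LXR alpha and efflux). For all 19 synthesis genes the vehicle mean is highest and the uridine mean next, whereas for Abca1 and Mylip the cultured libraries lie lowest.

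Levels of different genes were compared per kb of annotated exon. In young cells they ran from 0.415 ± 0.120 CPM per kb (mean ± SD, n = 3) for Fdps, the farnesyl diphosphate synthase, to 40.8 ± 1.46 for Npc2, a lysosomal carrier of cholesterol. Of the 5 SREBP genes, 4 were above every enzyme per length in young cells, and Insig2 (2.09 CPM per kb) was below most of them. Srebf2, which encodes SREBP2, stood at 26.7 ± 0.699 and Srebf1 at 21.4 ± 0.496 CPM per kb in young cells, and the sterol isomerase Ebp at 16.7 ± 0.547 was the highest of the enzymes. In vehicle cultures Cyp51 (62.2 ± 0.952 CPM per kb) and Hmgcs1 (54.6 ± 0.443) had come above Ebp (23.7 ± 0.774). Fdps is uncertain, since 23.5% of the 75-base stretches of its transcripts also occur in transcripts of other genes, among them pseudogenes, and its counts may be too low. The same share was 33.9% for Acat2 and 23.6% for Idi1, and for Fdft1 it was 21.8%, where Ctsb lies across from it on the opposite strand. The annotated length counts every exon of any transcript, which lowers the per-kb value of genes with many variants.

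Vehicle cultures were compared with uncultured aged cells to see how aged HSPCs differ after culture. Cultured cells differ from uncultured ones in medium, vehicle and time at once, and these cannot be told apart here. Every one of the 19 synthesis genes rose in culture, by 1.35-fold for Ebp to 15.1-fold for the isoprenoid isomerase Idi1. The cholesterol carriers and the storage enzyme Soat1 rose too, and the exporters Abca1 and Abcg1 and the ligase gene Mylip fell. By edgeR's quasi-likelihood test, with p-values adjusted over all genes and a threshold of 0.05, 28 of the 32 genes rose and 4 fell; of all genes tested, 70.5% were called, 35.4% higher and 35.1% lower. For all 32 the libraries of one group lay entirely above those of the other, against 71.5% of all genes. The median log2 fold change was 1.74 over the 32 and 2.32 over the synthesis genes, beside -0.01 over all genes tested.

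Among the mevalonate and isoprenoid genes the summed level went from 125 ± 3.42 to 667 ± 5.99 CPM (mean ± SD, n = 3). Idi1 stood at 16.8, 18.0 and 18.0 CPM in young cells, 10.1, 5.64 and 8.06 in uncultured aged cells, 119.8, 122 and 119.8 with vehicle, and 82.1, 87.2 and 87.4 with uridine. Its uncultured aged libraries were the lowest of the 12 and its vehicle libraries the highest, 15.1 times above (log2 fold change 3.92, SE 0.0867, edgeR adjusted p = 1.30e-30). Hmgcs1, the synthase that commits acetoacetyl-CoA to the pathway, stood at 27.2, 29.9 and 27.2 CPM in young cells, 20.6, 18.0 and 23.3 in uncultured aged cells, 250.5, 249 and 253 with vehicle, and 184, 181 and 185 with uridine. It rose by 3.60 in log2 units (SE 0.0530, edgeR adjusted p = 2.66e-36), with no overlap between any 2 of the 4 groups. Fdps, with few counts, stood at 1.30, 1.64 and 2.30 CPM in young cells, 1.07, 0.905 and 2.34 in uncultured aged cells, 14.6, 14.9 and 12.9 with vehicle, and 9.85, 9.57 and 10.6 with uridine, and rose by 3.29 (SE 0.212). Acat2, the thiolase of the first step, and the decarboxylase Mvd rose by 2.50 and 2.04 on the log2 scale. The kinases Mvk and Pmvk rose less, by 1.25 and 0.96, and Ggps1, which draws farnesyl units off to geranylgeranyl diphosphate for protein prenylation, rose by 0.48 (SE 0.0871).

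The 11 squalene and sterol genes summed to 221 ± 8.69 CPM in uncultured aged and 1219 ± 10.6 CPM in vehicle libraries. Msmo1, the C-4 methylsterol oxidase, stood at 12.5, 11.4 and 11.2 CPM in young cells, 9.39, 12.7 and 11.2 in uncultured aged cells, 156, 165 and 158 with vehicle, and 104, 111 and 104 with uridine. Uncultured libraries of either age shared the same range, and the vehicle libraries lay 14.4 times above the aged ones (log2 fold change 3.85, SE 0.0678, edgeR adjusted p = 8.24e-34). Cyp51, the lanosterol demethylase, stood at 29.4, 28.0 and 29.2 CPM in young cells, 24.4, 31.4 and 22.3 in uncultured aged cells, 271, 279 and 273 with vehicle, and 185, 189.9 and 182 with uridine. It was the most abundant synthesis gene in culture, also per length, and rose by 3.40 (SE 0.0580). Sqle, the squalene epoxidase, which is another point of control of the pathway, stood at 29.4, 32.1 and 30.4 CPM in young cells, 22.3, 24.4 and 26.4 in uncultured aged cells, 198, 205 and 208 with vehicle, and 146, 146 and 143 with uridine. It rose by 3.07 (SE 0.0504), followed by the cyclase Lss (2.73), the squalene synthase Fdft1 (2.51), Hsd17b7 (2.32) and Nsdhl (2.08). Other steps changed less: the sterol reductase Tm7sf2 by 1.84, the desaturase Sc5d by 1.81 and the sterol reductase Dhcr7 by 1.68. Ebp, the isomerase before Sc5d, changed least of the sterol genes (0.43, SE 0.0640, edgeR adjusted p = 2.33e-07).

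Of the 5 SREBP genes 4 rose and 1 fell in culture. Insig1, itself known as a target of SREBP, stood at 52.5, 52.8 and 56.3 CPM in young cells, 53.3, 53.0 and 62.1 in uncultured aged cells, 173, 179 and 182 with vehicle, and 135, 136 and 142 with uridine. Its vehicle libraries lay 3.17 times above the uncultured aged ones (log2 fold change 1.67, SE 0.0480, edgeR adjusted p = 5.93e-27). Srebf2 stood at 188, 197 and 189 CPM in young cells, 245, 239 and 242 in uncultured aged cells, 452, 439 and 453 with vehicle, and 377, 369.9 and 374 with uridine, with no overlap between any 2 groups, and rose by 0.89 (SE 0.0280). Its relative Srebf1, better known for fatty acid synthesis, rose by 0.34. Insig2 stood at 7.75, 6.79 and 7.22 CPM in young cells, 14.2, 15.4 and 15.2 in uncultured aged cells, 22.3, 18.7 and 20.0 with vehicle, and 13.5, 13.3 and 16.1 with uridine and rose by 0.44 (SE 0.107). Scap, the escort of SREBP, was alone in falling, at 147, 130.5 and 132 CPM in young cells, 117, 112 and 122 in uncultured aged cells, 93.7, 102 and 99.7 with vehicle, and 107, 113 and 110.4 with uridine (log2 fold change -0.25, SE 0.0459, edgeR adjusted p = 8.11e-06), and a transcript on the opposite strand covers 13.2% of its exon bases.

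All 4 transport and storage genes rose. Stard4, a soluble carrier that shuttles sterol between membranes and a known SREBP target, stood at 35.2, 37.3 and 35.2 CPM in young cells, 19.6, 24.5 and 26.5 in uncultured aged cells, 186, 183 and 182 with vehicle, and 144, 140.1 and 142 with uridine. This was 7.81 times the uncultured aged level (log2 fold change 2.97, SE 0.0572, edgeR adjusted p = 1.57e-32), a rise of the size seen for the enzymes. Soat1, which esterifies cholesterol for storage, stood at 80.1, 86.8 and 79.3 CPM in young cells, 51.5, 56.9 and 63.3 in uncultured aged cells, 144, 151 and 147 with vehicle, and 137, 121 and 129 with uridine and rose by 1.37 (SE 0.0539). Npc1, the lysosomal membrane protein that passes on cholesterol from uptake, stood at 59.8, 58.3 and 64.0 CPM in young cells, 45.5, 43.3 and 42.8 in uncultured aged cells, 110.0, 106 and 111 with vehicle, and 91.0, 84.8 and 84.8 with uridine and rose by 1.31 (SE 0.0508). Its partner Npc2 rose by 1.17.

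The LXR genes were divided. Nr1h3, the gene of LXR alpha, stood at 0.949, 1.42 and 1.75 CPM in young cells, 1.86, 1.81 and 2.48 in uncultured aged cells, 11.9, 10.9 and 11.9 with vehicle, and 7.34, 9.01 and 5.92 with uridine, and rose by 2.50 (SE 0.200, edgeR adjusted p = 1.43e-13). The other 3 genes of this set, Abca1, Mylip and Abcg1, fell. Abca1, the exporter of cholesterol to lipid-poor apolipoprotein, stood at 15.8, 17.4 and 16.2 CPM in young cells, 71.8, 75.1 and 73.0 in uncultured aged cells, 4.73, 4.89 and 4.46 with vehicle, and 11.0, 8.95 and 10.3 with uridine. The vehicle libraries were the lowest and the uncultured aged ones the highest, a 15.6-fold difference (log2 fold change -3.96, SE 0.0960, edgeR adjusted p = 2.36e-29). Mylip stood at 50.5, 47.7 and 50.6 CPM in young cells, 62.3, 63.7 and 56.6 in uncultured aged cells, 9.99, 10.9 and 11.1 with vehicle, and 26.9, 28.0 and 27.2 with uridine and fell by 2.51 (SE 0.0769). Abcg1, the exporter to lipoprotein particles, stood at 25.7, 26.3 and 23.7 CPM in young cells, 42.5, 44.0 and 45.5 in uncultured aged cells, 17.1, 17.0 and 20.6 with vehicle, and 15.2, 20.0 and 18.4 with uridine, with both cultures below both uncultured groups, and fell by 1.27 (SE 0.0903).

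Other genes of the pathway, from lists written with the members, were counted in the same contrast. Of 6 further genes of acetyl-CoA supply and sterol synthesis 5 rose, among them Acly, the source of cytosolic acetyl-CoA (log2 fold change 0.85). Of 15 genes of uptake and trafficking 9 rose and 5 fell; the lipoprotein receptors Lrp1 and Lrp8 rose by 2.86 and 2.07 and the HDL receptor Scarb1 by 1.46. Of 8 genes that use isoprenoids for prenylation, dolichol or ubiquinone 2 rose and 3 fell, with a median of 0.06. The 12 genes that cleave, degrade or hold back the SREBP machinery gave 6 higher and 3 lower, and the largest change was that of Fbxw7, a ubiquitin ligase subunit for nuclear SREBP and other proteins (-1.36). Of 11 tested genes linked to LXR and efflux (Apoc1 was too low to test) 9 fell and 2 rose. Apoe, an acceptor of exported cholesterol, went from 390.3 ± 27.4 to 15.2 ± 1.23 CPM, Arl4c fell by 1.66 and Nr1h2, the gene of LXR beta, by 0.79. The 2 that rose were Lpcat3 (1.14) and Abca7 (0.42), so the genes of this list did not all move one way. Of 5 tested genes of sterol oxidation and oxysterol binding (Cyp46a1 was too low) 4 fell and 1 rose. Gpr183, the receptor of an oxysterol, fell the most (-2.67).

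Marker lists of other cells moved in the same comparison. Of 14 macrophage markers 9 rose and 4 fell, and their sum was 188 to 202 CPM before and 1391 to 1431 CPM after culture. None was at 0 in either group. All 8 plasma cell markers fell, with a sum of 25634 to 25891 CPM before and 1044 to 1092 CPM after culture, and none was at 0. All 10 markers of cycling cells rose, with a sum of 1798 to 1846 CPM before and 2795 to 2847 CPM after. All 10 erythroid markers fell, with a sum of 206 to 214 CPM before and 9.72 to 11.9 CPM after culture and Slc4a1 at 0 after it. Of 10 neutrophil markers 8 fell and 1 rose, with sums of 522 to 558 and 289.7 to 298 CPM and Ly6g at 0 after culture. Of 9 tested stromal markers 7 fell and 2 rose, with sums of 138 to 155 and 185 to 187 CPM and Pdgfra at 0 after culture. The part of these cell types and of the cell cycle in the rise of the cholesterol genes was not tested. With immunoglobulin genes and Jchain left out before scaling, the counts stayed at 28 higher and 4 lower.

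**Figure D2:**
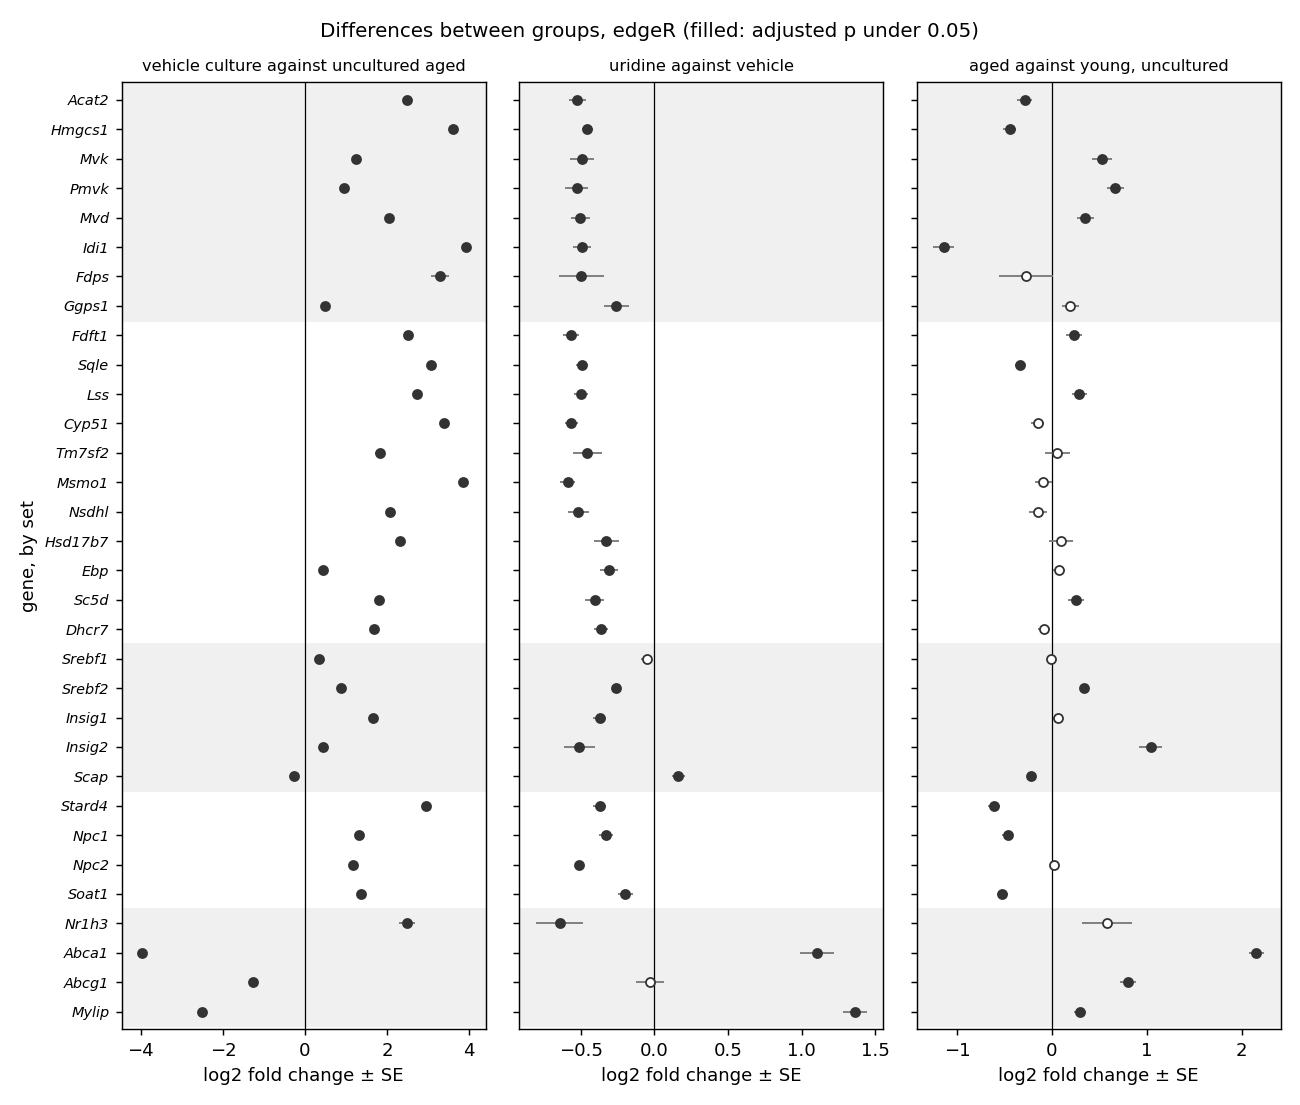
Log2 fold changes of the 32 genes in 3 comparisons (each with its own horizontal scale), as points with the standard error of the edgeR fit; filled points passed an adjusted p of 0.05 and open points did not. All synthesis genes lie to the right in vehicle culture against uncultured aged cells and to the left in uridine against vehicle, whereas with age they lie on both sides of 0; the difference of uridine from vehicle is near -0.49 for most synthesis genes.

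Uridine cultures were compared with vehicle cultures to see what uridine changes in aged cells. All 19 synthesis genes were lower with uridine, by a similar factor, and the LXR targets Abca1 and Mylip were higher. The log2 fold changes of the synthesis genes ran from -0.59 (Msmo1) to -0.26 (Ggps1), with a median of -0.49, although the same genes had differed by 0.43 to 3.92 in culture. In all, 27 of the 32 genes were lower and 3 higher by the edgeR test, where 38.1% of all genes were called, 18.1% lower and 20% higher. The libraries of the 2 groups did not overlap for 31 of the 32, against 50% of all genes. The median over the 32 was -0.46, beside -0.0011 over all genes tested. Vehicle libraries enter both this comparison and the one with uncultured aged cells, so the 2 sets of values are not independent.

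For most of these genes the uridine libraries lay between the vehicle and the young libraries, as they did for many other genes. Whether the uridine libraries hold RNA of other samples was not tested, and from these files a mixture and a response to uridine cannot be told apart; each uridine value below is to be read with that limit. For the 19 synthesis genes the uridine mean lay at a median of 0.362 of the way from vehicle to young (lowest 0.249, highest 0.649), beside 0.333 for the 145 genes that are high in young and low in vehicle cells. Over 1187 other genes at least 2 times higher in vehicle than in young cells the median was 0.407, with quartiles 0.322 and 0.476. Hmgcs1, for example, was at 251 ± 2.04 CPM with vehicle, 183 ± 2.08 with uridine and 28.1 ± 1.55 in young cells, a position of 0.305. When this share of the young mean, estimated without the members at 0.329 to 0.342 per library, was subtracted from the uridine libraries, 3 of the 32 genes were lower and 2 higher by edgeR, and of the 19 synthesis genes only Ebp was still called (-0.23, edgeR adjusted p = 0.0208). The others called were Npc2 (-0.28) and Abcg1 (-0.38, edgeR adjusted p = 0.049) lower, and Abca1 (0.54) and Mylip (0.58) higher. By construction the subtraction removes the difference of any gene whose position equals that share, and it was added after the data were seen, when the positions were known. The loss of calls is therefore a restatement of the positions and no test of what sets them.

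**Figure D3:**
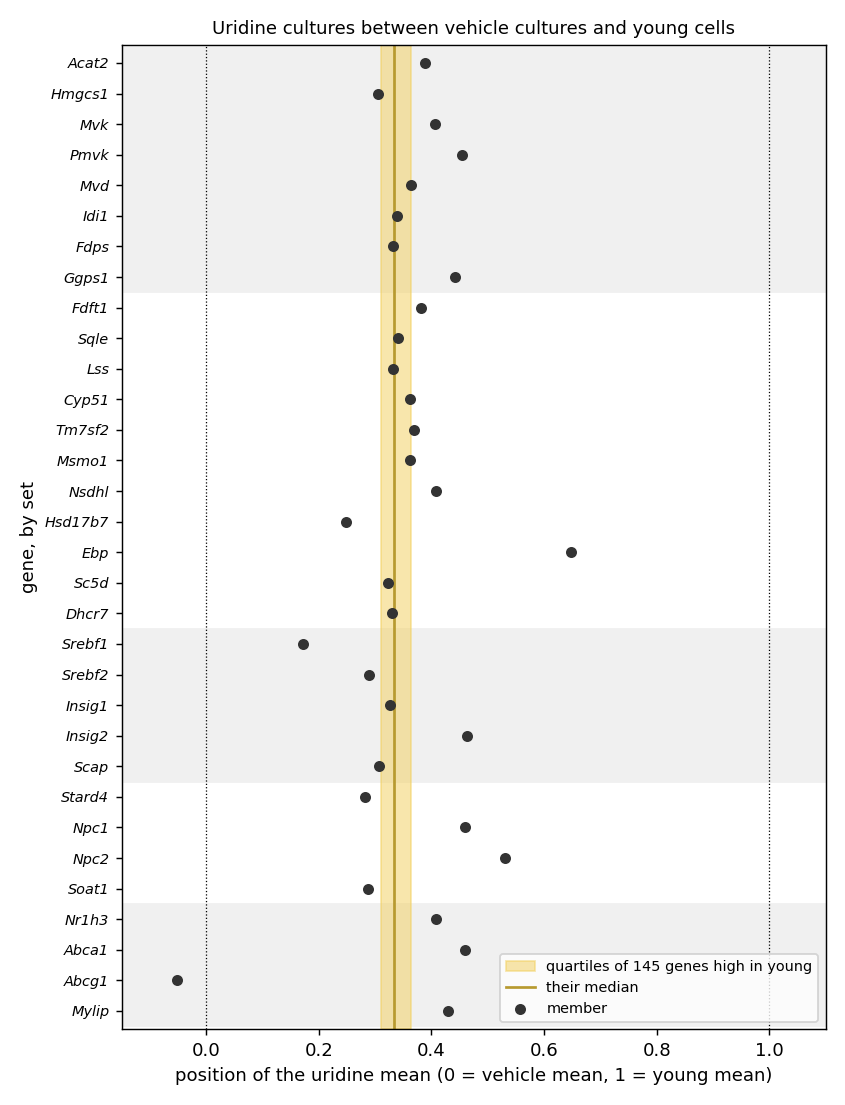
The mean of the uridine libraries for each of the 32 genes as a position between the vehicle mean (0) and the young mean (1), with the quartiles (yellow band) and median (line) of the 145 genes whose young level was 10 or more times the vehicle level. The members run from -0.053 (Abcg1) to 0.649 (Ebp), some in the band and others on either side of it; Ebp, Srebf1, Scap and Abcg1 have close vehicle and young means, which makes their positions imprecise.

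Among the mevalonate genes Pmvk and Acat2 had the largest differences. Pmvk, the phosphomevalonate kinase, stood at 13.5, 12.0 and 13.1 CPM in young cells, 20.7, 21.8 and 19.1 in uncultured aged cells, 38.6, 41.1 and 39.8 with vehicle, and 28.3, 25.6 and 28.9 with uridine, so that every uridine library lay below every vehicle library and above every young one (log2 fold change of uridine against vehicle -0.53, SE 0.0761, edgeR adjusted p = 5.66e-07). Acat2 stood at 20.4, 22.3 and 22.5 CPM in young cells, 17.2, 20.2 and 16.1 in uncultured aged cells, 103, 95.8 and 103 with vehicle, and 72.1, 69.0 and 68.8 with uridine and differed by -0.52 (SE 0.0562). Fdps, given above, differed by -0.50, with a larger error (SE 0.152, edgeR adjusted p = 0.00914). Of the sterol genes Msmo1 fell by 0.59 (SE 0.0485, edgeR adjusted p = 1.82e-12) and Cyp51 by 0.57 (SE 0.0448). Fdft1, which joins 2 farnesyl units to squalene, stood at 16.1, 15.2 and 13.1 CPM in young cells, 18.0, 17.5 and 16.7 in uncultured aged cells, 98.5, 99.8 and 99.1 with vehicle, and 65.2, 65.5 and 70.1 with uridine and fell by 0.57 (SE 0.0557). For Ggps1 the vehicle and uridine libraries came close, and its call was lost without uridine replicate 2 (edgeR adjusted p = 0.117) or without vehicle replicate 3 (0.0753).

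Of the SREBP genes Insig2 fell by 0.51 (SE 0.104), Insig1 by 0.37 and Srebf2 by 0.26 (SE 0.0270, edgeR adjusted p = 5.21e-10). Srebf1 was at 153 ± 4.31 CPM with vehicle and 147 ± 1.25 with uridine, a difference that was not called (edgeR adjusted p = 0.277). Scap was higher with uridine by 0.16 (SE 0.0450, edgeR adjusted p = 0.00394), a call lost without vehicle replicate 1 (edgeR adjusted p = 0.0518). All 4 transport genes fell. Npc2 stood at 219.7, 215 and 231 CPM in young cells, 229, 215 and 234 in uncultured aged cells, 506, 509.9 and 509 with vehicle, and 362, 355 and 352 with uridine, and its uridine libraries lay 1.43 times below the vehicle ones (log2 fold change -0.51, SE 0.0295, edgeR adjusted p = 9.42e-17). Stard4 fell by 0.37, Npc1 by 0.33 and Soat1 by 0.20.

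Nr1h3 fell by 0.64 with uridine (SE 0.160, edgeR adjusted p = 0.00145), while Mylip and Abca1 rose by 1.36 (SE 0.0807, edgeR adjusted p = 2.23e-16) and 1.11 (SE 0.115, edgeR adjusted p = 5.54e-10). Mylip went from 10.7 ± 0.587 to 27.4 ± 0.547 CPM and Abca1 from 4.69 ± 0.216 to 10.1 ± 1.06 CPM, in both cases short of the 49.6 ± 1.65 and 16.5 ± 0.845 CPM of young cells. For Abcg1 the vehicle and uridine libraries overlapped (-0.03, SE 0.0956). In the wider lists, 3 of 6 synthesis genes fell and 1 rose, and 8 of 15 uptake and trafficking genes fell and 2 rose, with the lysosomal acid lipase Lipa at -0.45 and the sterol transporter Gramd1b at 0.47. Of 11 genes of LXR and efflux 6 rose, among them Apoe (1.80), Arl4c (1.80) and the exporter Abcg4 (4.68), and 1 fell, Lpcat3 (-0.32). Abcg4 had only 10 counts over the vehicle libraries (0.184 ± 0.0902 CPM), so the size of its rise is imprecise. Of 8 isoprenoid users 1 rose, and of 12 genes that control SREBP 1 rose and 1 fell. In the list of sterol oxidation and oxysterol binding 1 of 5 rose, the receptor Gpr183 (0.59). Macrophage markers summed to 1391 to 1431 CPM with vehicle and 875 to 900.4 CPM with uridine (8 of 14 lower, 2 higher). Erythroid markers, of which all 10 rose, and neutrophil markers, of which 9 of 10 rose, summed to 9.72 to 11.9 and 289.7 to 298 CPM with vehicle, and to 198 to 203 and 1949 to 2013 CPM with uridine. Cycling markers, of which 5 of 10 rose and none fell, summed to 2795 to 2847 CPM with vehicle and 3344 to 3346 CPM with uridine. Of 8 plasma cell markers 4 fell and 2 rose, and of 9 tested stromal markers 5 rose and 2 fell. Among the 12 progenitor markers 5 fell and 3 rose. Slc4a1 of the erythroid, Ly6g of the neutrophil and Pdgfra of the stromal list were at 0 with vehicle. The part of these cells and of the cell cycle in the differences was not tested.

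Uncultured aged and young cells were compared to see how HSPCs differ with the age of the mouse. The synthesis genes did not move as one group: Mvk, Pmvk, Mvd, Fdft1, Lss and Sc5d were higher in aged cells, Idi1, Hmgcs1, Acat2 and Sqle were lower, and 9 were not called. Abca1 was 4.46 times higher in aged cells and Abcg1 1.74 times. Of the 32 genes edgeR called 11 higher and 8 lower, or 19 in all, where 65.3% of all genes were called, 33.2% higher and 32.1% lower. The share of the 32 that was called is thus no greater than that of all genes. The libraries of the 2 groups did not overlap for 22 of the 32, against 66.9% of all genes, and the median log2 fold change was 0.06, beside 0.02 over all genes.

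The summed level of the 19 synthesis genes was 349 ± 5.58 CPM in the young and 346 ± 7.69 CPM in the aged group, within the spread of the libraries. Idi1 had the largest difference of these, 2.21 times lower in aged cells (a log2 difference of -1.14, SE 0.108, edgeR adjusted p = 1.33e-11). Hmgcs1 and Acat2 fell by 0.44 and 0.29 and Sqle by 0.33 (SE 0.0605, edgeR adjusted p = 1.15e-05). Pmvk was higher by 0.67 (SE 0.0911, edgeR adjusted p = 5.92e-08), with no overlap of its libraries. Mvk stood at 12.1, 10.0 and 9.41 CPM in young cells and 15.3, 15.5 and 14.8 in uncultured aged cells, 0.53 higher in log2 units (SE 0.104, edgeR adjusted p = 3.35e-05), and Mvd at 14.6, 12.6 and 13.6 CPM in young cells and 16.3, 16.6 and 19.3 in uncultured aged cells, 0.35 higher (SE 0.0872). The 3 enzymes that turn mevalonate into isopentenyl diphosphate were higher in aged cells, whereas Idi1, the isomerase after them, and the 2 genes before them, Acat2 and Hmgcs1, were lower. Ggps1, at 19.9, 21.8 and 20.0 CPM in young cells and 22.2, 23.1 and 25.4 in uncultured aged cells, was not called (edgeR adjusted p = 0.0616), but it was called higher without aged replicate 1 (0.041) or young replicate 2 (0.0478).

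Lss, the cyclase that makes the first sterol, stood at 14.1, 15.6 and 14.5 CPM in young cells and 19.0, 17.8 and 17.2 in uncultured aged cells and was higher by 0.29 (SE 0.0762, edgeR adjusted p = 0.00118). Sc5d stood at 19.8, 17.8 and 15.8 CPM in young cells and 20.4, 23.4 and 20.0 in uncultured aged cells, higher by 0.25 (SE 0.0861, edgeR adjusted p = 0.0106), and this call was lost without aged replicate 2 (edgeR adjusted p = 0.0979) or young replicate 3 (0.103). Fdft1, higher by 0.23, lost its call without young replicate 3 (edgeR adjusted p = 0.137) and when the 6 uncultured libraries were fitted alone (0.0708). Of the genes not called, Cyp51 passed as lower under DESeq2 (adjusted p = 0.0381) and without aged replicate 2 (edgeR adjusted p = 6.36e-05), and Fdps and Nsdhl passed as lower without aged replicate 3 (edgeR adjusted p = 0.0228 and 0.0157).

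Of the SREBP genes Insig2 was 2.06 times higher in aged cells (a log2 difference of 1.04, SE 0.120, edgeR adjusted p = 1.56e-09), Srebf2 was higher by 0.34 (SE 0.0290) and Scap lower by 0.22 (SE 0.0447, edgeR adjusted p = 5.73e-05). Insig1 and Srebf1 were not called (0.06 and -0.0040). Stard4, Soat1 and Npc1 were lower in aged cells by 0.61, 0.52 and 0.47 on the log2 scale, and Npc2 was at 222 ± 7.94 and 226 ± 10.1 CPM. Abca1 was higher by 2.16 (SE 0.0798, edgeR adjusted p = 2.93e-23), Abcg1 by 0.80 (SE 0.0869) and Mylip by 0.29 (SE 0.0639). The 3 genes did not overlap between the ages. Nr1h3, with few counts, was at 1.37 ± 0.402 and 2.05 ± 0.373 CPM and was not called (edgeR adjusted p = 0.0516), but it was called higher without aged replicate 2 (0.0461) or young replicate 3 (0.0203) and without the immunoglobulin genes (0.048).

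In the wider lists, Lbr, another sterol reductase and a protein of the nuclear lamina, fell by 0.96 with age, among 3 of 6 synthesis genes that were lower. Uptake and trafficking gave 6 higher and 5 lower of 15, with Lrp1 and Scarb1 lower by 1.31 and 0.55. Of the LXR and efflux genes 4 were higher and 4 lower of 11: Apoe rose by 1.55, and Arl4c and Abcg4 fell by 1.26 and 2.03. Of 12 genes that control SREBP 5 rose and 3 fell, with Fbxw7 at 1.09, and 2 of 8 isoprenoid users rose and 2 fell. The list of sterol oxidation and oxysterol binding gave 3 higher and 1 lower of 5. Higher were Gpr183 (2.82 times) and Osbpl5 (a log2 change of 1.30), neither of them an oxidising enzyme. The enzyme Cyp7b1 was higher too, from 0.408 to 1.22 CPM. The enzyme Cyp27a1 was lower (-0.59), and Ch25h, with very few counts, was not called. All 8 plasma cell markers were higher in aged cells, with a sum of 634 to 643 CPM in the young and 25634 to 25891 CPM in the aged group. All 10 cycling markers were lower, at 4142 to 4203 CPM in the young and 1798 to 1846 CPM in the aged group. Macrophage markers, at 284 to 297 and 188 to 202 CPM, gave 5 higher and 5 lower of 14. All 10 neutrophil markers were lower with age, with sums of 5176 to 5398 CPM in the young and 522 to 558 CPM in the aged group, and so were all 10 erythroid markers, at 571 to 576 and 206 to 214 CPM. Of 9 tested stromal markers 5 were lower and 2 higher, with sums of 658 to 685 and 138 to 155 CPM, and no marker of these 6 lists was at 0 in either group. Their part in the differences of the cholesterol genes was not tested.

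**Figure D4:**
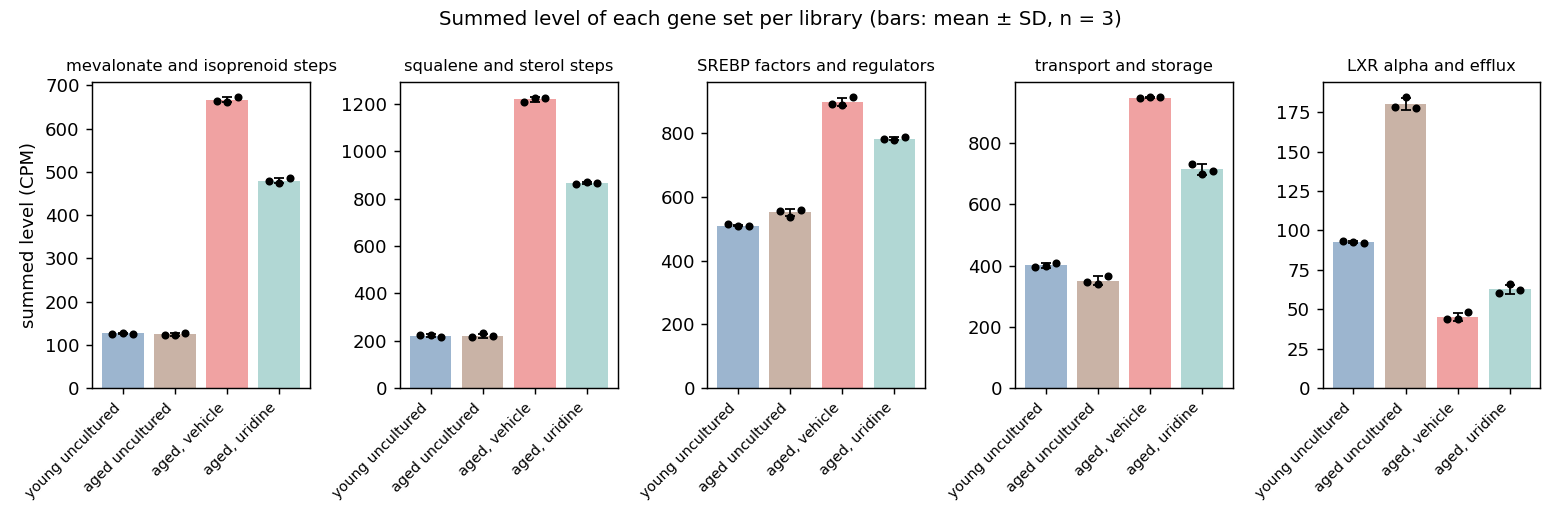
Summed level in CPM of the 5 sets of members in each group, as bars with the mean and SD of 3 libraries and 1 point per library. The sums of the synthesis, SREBP and transport sets are highest with vehicle and next highest with uridine, and the sum of the LXR set is highest in uncultured aged cells (180.3 ± 3.84 CPM).

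Across the 4 groups, 27 of the 32 genes were highest with vehicle and next highest with uridine. This held for all 19 synthesis genes, of which 9 were lowest in uncultured aged and 10 in young cells. For 10 of the 19 each group differed from its neighbour in the order, by an adjusted p under 0.05 and without overlap of libraries. For 9 the difference between the 2 lowest groups, young and aged, was not called. Among these the young and aged libraries overlapped, except for Ggps1 and Dhcr7. For Ggps1 and Ebp the uridine and uncultured aged libraries overlapped. How many of all genes have this order, or steps that all exceed the spread, was not counted. The counts of 27 and 10 are therefore not set against a share of all genes. Even with uridine all 19 stayed above young cells by edgeR, with a median log2 fold change of 1.89 against 2.39 with vehicle; of all genes tested, 49.4% were called with uridine against young (26.2% higher) and 65.9% with vehicle against young (33.3% higher), and for 57.2% and 70.2% the libraries did not overlap. Against uncultured aged cells 18 of the 19 were higher with uridine, where 67.9% of all genes were called (35.8% higher) and 69.3% had libraries that did not overlap, and Ebp was not called (0.13, edgeR adjusted p = 0.0821). Scap had the reverse order, highest in young and lowest with vehicle, with uridine and uncultured aged levels that did not differ beyond their spread. Abca1 and Mylip were highest in uncultured aged cells, then in young cells, then with uridine, and lowest with vehicle, and each step exceeded the spread. Abcg1 shared that order except that its vehicle and uridine levels did not differ beyond their spread. Insig2 was lowest in young cells, and its uridine and uncultured aged levels did not differ beyond their spread.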

How the data were processed

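Poly(A) RNA of bone marrow HSPCs was sequenced as paired reads of 150 bases and, per the labels' protocols, aligned with HISAT2 2.0.5; the submitters' processing notes name mm10. The authors deposited raw read counts per Ensembl gene; the sources used name neither a counting program nor a strand setting, so overlapping and antisense genes cannot be told apart. Symbols and exon lengths came from GENCODE M21 (54495 of 54532 IDs matched; the other 37 held at most 0.00589% of a library). edgeR 4.0.16 (filterByExpr, TMM, 1 mean per group over all 12 libraries, quasi-likelihood F-test, 8 residual degrees of freedom) tested all 16675 genes, with Benjamini-Hochberg adjustment over them and a threshold of 0.05. The method was also run on simulated counts in which few genes differed between otherwise equal groups. In these libraries many genes differ, so that run does not check the scaling used here. DESeq2 1.42.0 was an alternative. No 2 libraries of a group agreed within sampling noise (chi-square per degree of freedom 2.27 to 3.94). No value column was left unused. The members, gene lists and named-gene rule (up to 3 called members per set and comparison with the largest change, and up to 3 called genes of each wider list with the smallest p) were chosen with earlier results of these data known, and the gene list does not cover every gene of the pathway. Lpcat3, Abca7, Cyp7b1 and Ch25h were named outside that rule. The number in the sample titles did not pair libraries: of 18 same-numbered pairs across groups, 1 had a correlation of deviations over 0.1.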

Additional observations from a re-analysis of the deposited data

How the results depend on the processing

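Every one of the 448 values of the 32 genes for culture kept its direction and its call under the alternatives that left the threshold as it was (DESeq2, DESeq2 or upper quartile factors in edgeR, immunoglobulin genes left out, 2 other filters, only the libraries compared, a replicate block, and each library left out). Of 448 for uridine against vehicle 443 did, and of 448 for age 423 did. With a replicate block, edgeR called 28 members higher and 4 lower in culture (5882 and 5785 of all 16675 genes). It called 3 higher and 27 lower with uridine (3289 and 2961 of all genes), and 11 higher and 8 lower with age (5450 and 5318). The numbers are not known to pair the libraries. Leaving out 1 library gave 28 members higher and 4 lower in culture (all genes 5699 to 5848 and 5673 to 5763). With uridine it gave 2 to 3 higher and 26 to 27 lower (all genes 2880 to 2995 and 2536 to 2662). With age it gave 10 to 12 higher and 8 to 10 lower (all genes 5233 to 5359 and 5157 to 5276).

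With a log2 change of at least 0.5 required besides, 5 members were higher and 3 lower with age (3569 and 2977 of all 16675 genes). With uridine 2 members were higher and 10 lower (1544 and 770 of all genes). In culture 24 members were higher and 3 lower (3636 and 4145 of all genes). In the subtraction of the young-like share, chosen after seeing the data, 2 members were higher and 3 lower with uridine, and 1090 of all genes were higher and 1636 lower; none of the members that turned direction there was called. These were Hmgcs1 (0.043), Hsd17b7 (0.130), Sc5d (0.00734), Srebf1 (0.0579), Srebf2 (0.0409), Scap (-0.0397), Stard4 (0.0763) and Soat1 (0.0312).

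Values near 0 with age turned direction, none of them called. Srebf1 was at 0.00255 with immunoglobulin genes left out. When 1 library was left out the log2 fold change with age ran from -0.0446 to 0.0254 for Srebf1, from -0.196 to 0.0197 for Msmo1, from -0.0261 to 0.188 for Hsd17b7, from -0.0894 to 0.225 for Tm7sf2, from -0.0161 to 0.0984 for Insig1 and from -0.000808 to 0.0593 for Npc2, and with uridine from -0.117 to 0.0749 for Abcg1. The cause was not tested. Fdps and Nr1h3 had the lowest levels of the members in uncultured cells, and their standard errors with age were the largest of the 32.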
